A study of Mus musculus with 8 samples.

Results

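The collagen chain genes are the genes whose single symbol on the array reads Col, a number, the letter a and a number. Of the 18193 genes with a probe-set of their own, 42 are of this kind, and each is represented by its brightest probe-set, that with the highest mean log2 signal over the 8 arrays. The RefSeq table holds 44 such genes, of which Col28a1 and Col6a6 were not analysed here. The 42 comprise 11 fibrillar, 8 basement membrane and 23 other collagens, and 25 of the 42 (8 fibrillar, 5 basement membrane and 12 other) reached the level needed for a test. The arrays were hybridised with RNA of primary cultures of wild-type mouse cerebellar cells, plated without serum for 48 h and then kept for 6, 16, 24 or 48 h with 0.1 µM T3, the active thyroid hormone, or for the same hours without it. Each of the 8 conditions was 1 culture on 1 array. The methods give the pups as P1 to P4 and the labels as P4 to P7, the cerebella were pooled, and the T3 and untreated culture of a time point came from the same batch of cells. All cultures were of 1 genotype, and the labels call the cells neurons, although the dissociated cerebella held other cell types as well.

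Collagens are secreted proteins of the extracellular matrix in which chains, each encoded by its own gene, wind into a triple helix. Fibrillar collagens such as types I, III and V assemble into the fibres of connective tissue, type IV forms the network of basement membranes under epithelia and around vessels, and other types decorate fibres, build beaded filaments or stay in the cell membrane. In the brain, fibrillar collagens are known mainly from the meninges and the walls of larger vessels, whereas neurons make few of them.

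Time points and batches could not be told apart, since the methods do not say that cultures of different hours shared a batch. Xist, the RNA that silences an X chromosome in females, gave 11.6 on the T3 array and 15.2 on the untreated array at 6 h, whereas all 6 arrays of later hours lay between 538.5 and 1037. The 6 h cultures therefore differed from the later ones in a gene that depends on the sex of the pups. Median signals of all probe-sets were 16.4 to 17.7 on the T3 arrays and 14.8 to 17.7 on the untreated arrays. The untreated 24 h array had high signals of astrocyte genes, for example 1054 for the water channel Aqp4, against 16.8 to 76.8 on the other arrays.

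The main feature of the collagens was a higher signal after longer culture, with either treatment. For 24 of the 25 kept genes both 48 h arrays were above both 6 h arrays, as was the case for 36.5% of all 18015 kept probe-sets. Only Col9a1 was lower on both 48 h arrays than on both 6 h arrays (45.9% of all kept probe-sets). The change was fitted with limma as a slope, the change of log2 signal per doubling of the hours, adjusted for treatment and with a random block for the hours, because arrays of a time point share a batch. Of the 25 genes 11 rose in this fit and 0 fell, against 1.75% of all kept probe-sets that rose and 0.422% that fell. At an unadjusted p under 0.05, 18 collagen genes had positive slopes, and 4362 of all 18015 kept probe-sets had slopes of either sign. The count of 11 was 0 without the 6 h arrays, 17 without the 16 h arrays (5.32% of all kept probe-sets), 20 without the 24 h arrays (13.4%) and 0 without the 48 h arrays. With 1 averaged value per time point 0 collagens passed (smallest limma adjusted p = 0.208, 17 with positive slopes at an unadjusted p under 0.05), as did 0 on the T3 arrays alone (0.0919, 21) and 0 on the untreated arrays alone (0.428, 15). In the same order, 3409, 3904 and 2091 of all kept probe-sets had an unadjusted p under 0.05, with slopes of either sign. With all 8 arrays taken as independent, which leaves out the shared batches, 16 rose and 1 fell, against 10.6% and 8.56% of all kept probe-sets. The median slope was 0.80 for the 25 collagens and -0.03 for all kept probe-sets. In RNA of whole cultures, more cells of a type and more RNA per cell cannot be told apart. The rise of Col1a1, Col1a2, Col3a1 and Col12a1 was known from earlier results of these data and is described here, not offered as new support.

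**Figure D1:**
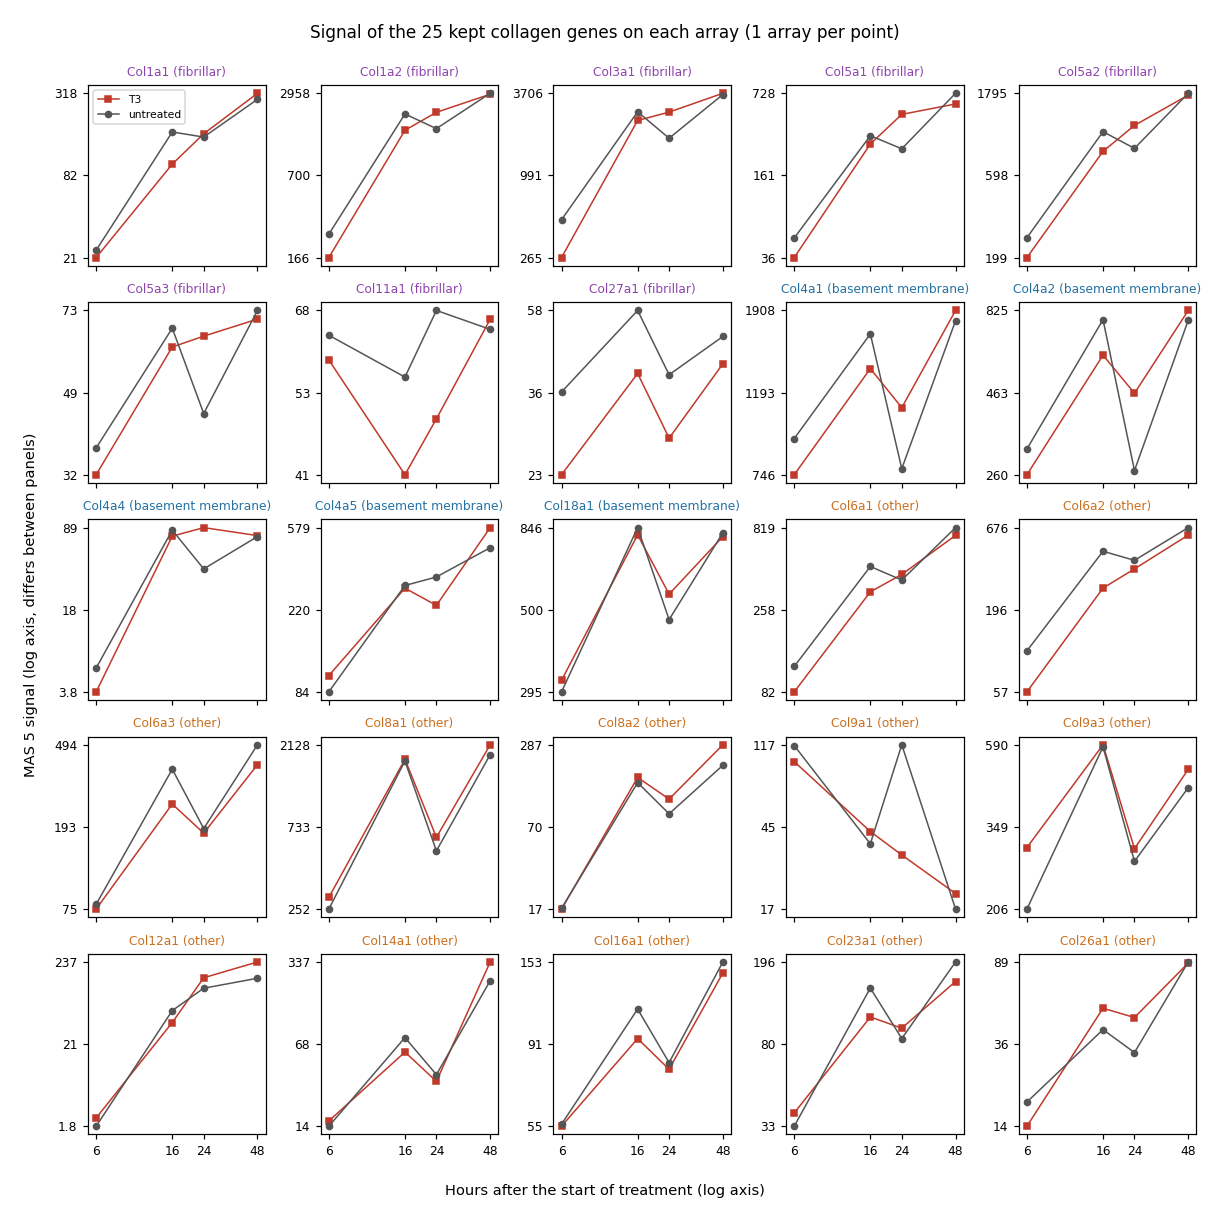
Signal of each of the 25 kept collagen genes (log axis, scaled to each gene, ticks at its lowest, middle and highest value) against hours after the start of treatment (log axis), with red squares for the T3 arrays and grey circles for the untreated arrays, 1 array per point. For all but Col9a1 both 48 h points lie above both 6 h points, and 11 genes are lower on both 24 h arrays than on both 16 h arrays.

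Among the fibrillar collagens 5 of 8 rose, with a median slope of 1.04 over the class. Col1a1 and Col1a2 encode the chains of type I collagen, the main fibre of connective tissue. Col1a1 had signals of 21.1, 98.7, 163 and 318 with T3 and 23.8, 168, 154 and 288 without at 6, 16, 24 and 48 h (slope 1.25, SE 0.17, limma adjusted p = 0.0390). Col1a2 was at 165.5, 1546, 2117 and 2909 with T3 and 249, 2056, 1591 and 2958 without (slope 1.28, SE 0.21, limma adjusted p = 0.0440). Both genes were lowest on the 6 h arrays and highest on the 48 h arrays, and for both the 24 h signal was above the 16 h signal with T3 and below it without. Col3a1, the chain of type III collagen that forms finer fibres together with type I, had 265, 2395, 2738 and 3705.5 with T3 and 486, 2753.5, 1799 and 3633 without (slope 1.10, SE 0.23, limma adjusted p = 0.0492). Its signal at 48 h was 14 times that at 6 h with T3 and 7.47 times without, the larger ratio with T3 going with a lower signal at 6 h.

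Col5a1 and Col5a2, chains of type V collagen, which starts the assembly of type I fibres, rose as well. Col5a1 had signals of 35.6, 287, 494 and 598.5 with T3 and 51, 334, 263 and 728 without (slope 1.32, SE 0.22, limma adjusted p = 0.0440), and Col5a2 of 199, 825, 1168 and 1752 with T3 and 259.7, 1074, 859 and 1795 without (slope 0.98, SE 0.14, limma adjusted p = 0.0420). Col5a2 and Col3a1 are neighbours in the genome. The third type V chain, Col5a3, moved less, with 32.2, 60.9, 64.3 and 70 with T3 and 36.8, 66.9, 43.7 and 73.1 without (slope 0.33, SE 0.15, limma adjusted p = 0.216), and did not pass. Nor did the minor fibrillar chains Col11a1 and Col27a1, both known from cartilage. Col11a1 stayed within 40.6 to 66.6 with T3 and 55.4 to 68.5 without (slope 0.04, SE 0.13, limma adjusted p = 0.877), and Col27a1 within 22.7 to 42.9 with T3 and 36.5 to 58.3 without (slope 0.19, SE 0.15, limma adjusted p = 0.439). With T3, 6 of the 8 fibrillar genes were higher at each later time point (Col1a1, Col1a2, Col3a1, Col5a1, Col5a2 and Col5a3), an order that 9 of the 25 collagens and 6.63% of all kept probe-sets showed. Without T3 none of the 8 did at the brightest probe-set, since 7 of them, all but Col11a1, were lower at 24 h than at 16 h. A further kept probe-set of Col5a2 had that order without T3 (90.9, 263.5, 296.5 and 569.4).

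**Figure D2:**
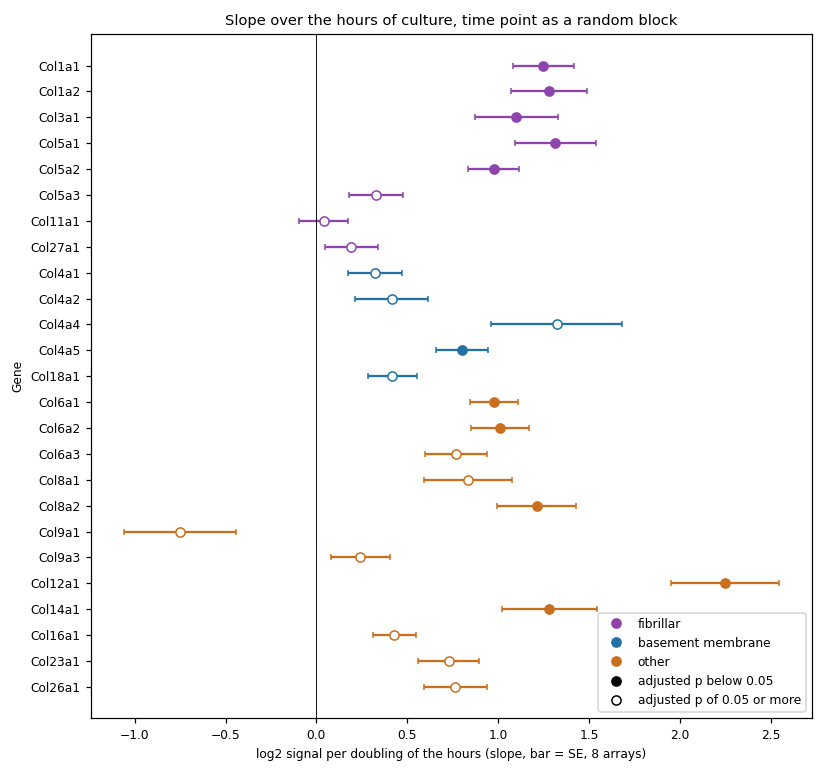
Slope of log2 signal per doubling of the hours (x axis, bars are the SE, 8 arrays) for the 25 kept collagen genes (y axis), coloured by class. Filled points have an adjusted p below 0.05, and the 11 filled points all lie above 0.8.

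For 33 of the 42 genes RefSeq gives a promoter in the mouse build GRCm38.p6, among them 7 of the 11 that rose. The 250 bases before the start are shown for 4 of these genes, 1 of type I (Col1a2, chr6:4505368-4505617, plus strand), 1 of type III (Col3a1, chr1:45311288-45311537, plus strand), 1 of type IV (Col4a5, chrX:141475169-141475418, plus strand) and 1 of type VI collagen (Col6a1, chr10:76726045-76726294, minus strand) as examples of 4 collagen types with a gene that rose. Capitals mark the CCAAT box, the TATA box with the letters TATAAA, the GC box with the letters GGGCGG and the half-site of nuclear receptors, AGGTCA, on either strand.
Col1a2: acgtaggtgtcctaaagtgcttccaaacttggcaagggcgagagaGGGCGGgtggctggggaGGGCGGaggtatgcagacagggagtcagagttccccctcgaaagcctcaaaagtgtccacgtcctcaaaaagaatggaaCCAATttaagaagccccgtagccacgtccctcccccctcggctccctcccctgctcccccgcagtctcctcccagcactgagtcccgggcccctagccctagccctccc
Col3a1: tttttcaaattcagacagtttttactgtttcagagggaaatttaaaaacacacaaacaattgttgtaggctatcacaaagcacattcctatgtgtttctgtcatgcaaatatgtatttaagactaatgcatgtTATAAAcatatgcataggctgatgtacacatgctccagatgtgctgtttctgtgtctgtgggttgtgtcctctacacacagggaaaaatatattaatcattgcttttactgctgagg
Col4a5: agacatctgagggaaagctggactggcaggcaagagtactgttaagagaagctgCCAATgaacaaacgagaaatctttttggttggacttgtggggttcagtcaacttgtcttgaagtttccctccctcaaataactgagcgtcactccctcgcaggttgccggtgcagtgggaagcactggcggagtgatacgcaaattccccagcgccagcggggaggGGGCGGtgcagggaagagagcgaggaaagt
Col6a1: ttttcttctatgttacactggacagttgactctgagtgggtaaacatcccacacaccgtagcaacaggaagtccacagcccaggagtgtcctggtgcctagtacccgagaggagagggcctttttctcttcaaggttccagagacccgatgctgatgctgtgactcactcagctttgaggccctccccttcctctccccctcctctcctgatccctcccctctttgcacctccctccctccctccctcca
No motif was found in all 4 stretches, since Col1a2 and Col4a5 hold CCAAT and GGGCGG, Col3a1 holds TATAAA, and Col6a1 holds none of the 4. Over the 250 bases, GGGCGG was found on either strand for 20 of the 33 collagen genes (60.6%) and in 32.7% of all 32851 promoters, and for 5 of the 7 that rose. CCAAT was found for 13 (39.4%, against 33.8% of all promoters) and TATAAA for 5 (15.2%, against 12.4%). AGGTCA, bound as a half-site by receptors such as those of T3, was found for 8 (24.2%, against 14% of all promoters), none of them among the 7 that rose, and a pair of them in the same direction with 4 bases between for 0 (0.0152% of all promoters). A gene with several starts was counted when any of them matched, while the shares of all promoters count each start, and a match is a description of letters, not of a site.

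Basement membrane collagens had smaller slopes, with a median of 0.42, and 1 of 5 rose. Col4a1 and Col4a2 encode the chains found in almost every basement membrane. Among the RefSeq promoters their starts lie 21 bases apart on opposite strands, placed so that the genes overlap by 22 bases. Col4a1 had signals of 746, 1368, 1094.5 and 1907.5 with T3 and 917, 1668.5, 772 and 1799 without (slope 0.32, SE 0.15, limma adjusted p = 0.229). Col4a2 had 259.6, 602, 461 and 825 with T3 and 311, 773, 267 and 769.9 without (slope 0.42, SE 0.20, limma adjusted p = 0.243). The pair moved alike, low at 6 h, high at 16 h, low again at 24 h and highest with T3 at 48 h, and without T3 the 24 h signal of both was below that at 6 h. Without the 24 h arrays both passed (slopes 0.38 and 0.49, limma adjusted p = 0.0112 and 0.0161), in a fit in which 13.4% of all kept probe-sets rose and 14.2% fell.

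Col4a5, an X-linked chain of the specialised basement membranes of kidney and other organs, was the basement membrane gene that rose, with 101, 284, 232 and 579 with T3 and 83.5, 293, 324 and 457 without (slope 0.80, SE 0.14, limma adjusted p = 0.0440). It was also 1 of 2 collagens, with Col12a1, whose untreated signal was higher at each later time point (3.77% of all kept probe-sets). Col4a4, another chain of that network, had 3.8, 75.3, 88.7 and 76.1 with T3 and 6, 84.5, 40.2 and 74.7 without (slope 1.32, SE 0.36, limma adjusted p = 0.0795). Its 6 h signals were near the bottom of the scale, and without the 6 h arrays its slope was -0.01. Col18a1, the precursor of endostatin and a proteoglycan of vascular basement membranes, had 318, 807, 552 and 798.5 with T3 and 295, 845.5, 469 and 818 without (slope 0.42, SE 0.14, limma adjusted p = 0.114), with both 24 h arrays below both 16 h arrays.

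Of the 12 other collagens 5 rose, with a median slope of 0.80. Type VI collagen forms beaded filaments between fibres and basement membranes. Col6a1 had signals of 81.6, 332, 424 and 734 with T3 and 117, 474, 392.2 and 819 without (slope 0.98, SE 0.13, limma adjusted p = 0.0390), and its neighbour Col6a2 had 56.7, 271.5, 363 and 604 with T3 and 105, 473, 413 and 676 without (slope 1.01, SE 0.16, limma adjusted p = 0.0440). The third chain, Col6a3, was at 75.3, 251, 179.5 and 394 with T3 and 79.5, 374, 189 and 494 without and lay just outside the threshold (slope 0.77, SE 0.17, limma adjusted p = 0.0528). The first 2 chains exceeded their 16 h signal at 24 h with T3, whereas Col6a3 fell below it under both treatments.

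Col12a1 and Col14a1 encode collagens that sit on the surface of type I fibres. Col12a1 had the steepest slope of all collagens, with 2.3, 39.2, 148 and 237 with T3 and 1.8, 55.9, 109 and 146 without (slope 2.25, SE 0.30, limma adjusted p = 0.0390). Among the brightest probe-sets it was the collagen with both 24 h arrays above both 16 h arrays, as were 25.2% of all kept probe-sets. Further kept probe-sets of Col5a2 and Col11a1 had that order too. A further probe-set of Col12a1, below the filter, did not, with 36.6 at 16 h and 24.1 at 24 h without T3. The 6 h signals of the brightest Col12a1 probe-set were near the floor of 1, and with 32 added to every signal its slope was 0.93. Col14a1 had 15.4, 58.6, 33.2 and 337 with T3 and 13.9, 77.6, 37.8 and 234 without (slope 1.28, SE 0.26, limma adjusted p = 0.0478), so that most of its rise lay between 24 and 48 h. Together with Col11a1 and Col9a1 it was 1 of 3 genes whose slope was no smaller in size without the 6 h arrays (1.48).

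Type VIII collagen is a short-chain collagen of vessel walls and of Descemet's membrane in the eye. Col8a1 had 293.5, 1763, 640.1 and 2128 with T3 and 252, 1724, 537 and 1873 without (slope 0.84, SE 0.24, limma adjusted p = 0.0899), and Col8a2 had 17.1, 164, 113 and 287 with T3 and 17.3, 150, 87.7 and 202 without (slope 1.21, SE 0.22, limma adjusted p = 0.0440). Both dropped at 24 h with either treatment, and Col8a1 had the lowest ratios of 24 h over 16 h signal among the kept collagens (0.36 with T3 and 0.31 without). Col9a3, a chain of the cartilage collagen type IX, showed the same dip, with 306, 590.5, 304 and 505 with T3 and 206, 583, 280.1 and 449 without (slope 0.24, SE 0.16, limma adjusted p = 0.384).

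Col9a1, another type IX chain, went the other way. It had 96.2, 42.3, 32.1 and 20.4 with T3 and 116, 36.6, 117 and 17 without (slope -0.75, SE 0.31, limma adjusted p = 0.181), the only negative slope among the 25 genes. The untreated 24 h signal was as high as those at 6 h, and without that 1 array the slope was -0.83 and passed (limma adjusted p = 0.0220). In that fit 3.23% of all kept probe-sets fell. Col16a1, which associates with fibres, was at 54.7 to 143 with T3 and 55.4 to 153 without (slope 0.43, SE 0.12, limma adjusted p = 0.0837). The membrane-bound Col23a1 had 37.9 to 158 with T3 and 32.8 to 196 without (slope 0.73, SE 0.17, limma adjusted p = 0.0583), and the secreted Col26a1 14.3 to 87.6 with T3 and 18.7 to 88.6 without (slope 0.77, SE 0.17, limma adjusted p = 0.0577). These 3 genes had positive slopes that did not pass, and the values just inside and outside the threshold of 0.05 were 0.0492 for Col3a1 and 0.0528 for Col6a3.

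The collagens differed in their course between 16 and 24 h. For 11 of the 25 genes both 24 h arrays were below both 16 h arrays (31.8% of all kept probe-sets). They were Col27a1 of the fibrillar class, Col4a1, Col4a2 and Col18a1 of the basement membrane class, and Col6a3, Col8a1, Col8a2, Col9a3, Col14a1, Col16a1 and Col23a1 of the others. With T3 14 of the 25 were lower at 24 than at 16 h (52.7% of all kept probe-sets), and without T3 21 were (54.2%). More than 2-fold lower at 24 than at 16 h was 1 collagen with T3, Col8a1, against 3.5% of all kept probe-sets, and 6 without T3, against 8.65%. More than 2-fold higher at 24 than at 16 h was 1 with T3, Col12a1 (4.4%), and 1 without, Col9a1 (9.71%). More than 2-fold higher at 48 than at 6 h were 21 with T3 (13.6% of all kept probe-sets) and 20 without (15.2%), and Col9a1 was more than 2-fold lower with T3 (12.6%) and without (15%).

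The remaining 17 collagen genes had too low a mean signal for a test, with single signals of 0.1 to 67.8. They were Col2a1, Col11a2 and Col24a1 of the fibrillar class, Col4a3, Col4a6 and Col15a1 of the basement membrane class, and Col6a4, Col6a5, Col7a1, Col9a2, Col10a1, Col13a1, Col17a1, Col19a1, Col20a1, Col22a1 and Col25a1. The defining chain of cartilage, Col2a1, stayed at 3.1 to 5.6 with T3 and 2.3 to 9.1 without, and Col10a1 of growth plate cartilage at 0.7 to 7.2 with T3 and 0.5 to 4.8 without. Only Col7a1, Col15a1, Col20a1 and Col25a1 reached the filter level of 31 on 1 or more arrays. Col15a1, a relative of Col18a1 in basement membranes, had 15.1, 44.1, 22.4 and 67.8 with T3 and 14.3, 55, 23.1 and 23 without, lower at 24 h than at 16 h with both treatments, and at 48 h higher again with T3 but not without. Col25a1, a transmembrane collagen made by neurons, had 4, 8.8, 53 and 16.8 with T3 and 5.4, 12.2, 45.3 and 9.6 without, highest on both 24 h arrays. Genes at this level were described and not tested.

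T3 itself was tested with limma over the 4 pairs, with the time point as a block. Of the 25 collagens 0 were higher and 0 lower with T3, as were 0% of all kept probe-sets in either direction (985 of all kept probe-sets and 2 collagens had an unadjusted p under 0.05). The median effect was -0.03 for the collagens and 0.01 for all kept probe-sets. The effects with the smallest p were those of Col6a2 (log2 difference -0.51, SE 0.16, limma adjusted p = 0.815) and Col27a1 (-0.49, SE 0.16, limma adjusted p = 0.815), both negative at all 4 time points. A further kept probe-set of Col6a2 had a smaller difference (-0.24, SE 0.14). A further probe-set of Col27a1, below the filter, was higher with T3 at 6 h (0.39) and lower at the later hours. At the brightest probe-set, Col6a3 and Col16a1 were also lower with T3 at all 4 time points (6.82% of all kept probe-sets), and Col8a1 and Col9a3 higher (8.25%). For Col8a1 the difference was 0.17, SE 0.08, limma adjusted p = 0.815, but a further kept probe-set of it was lower with T3 at 16 h (-0.11). A limma test of whether the T3 difference changed with the hours called 0 collagens and 0% of all kept probe-sets (309 of all, and 0 collagens, at an unadjusted p under 0.05). A p that misses the threshold with 4 pairs does not show that T3 left the genes alone.

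At single time points, where 1 array stands against 1, the fibrillar genes shared the direction of the T3 difference at 6 and 16 h. At 6 h all 8 fibrillar genes were lower with T3, with log2 differences of -0.88 (Col3a1) to -0.11 (Col11a1), and 18 of all 25 collagens were lower (48.9% of all kept probe-sets) and 7 higher (50.9%). At 16 h again all 8 fibrillar genes were lower with T3, from -0.77 for Col1a1 to -0.14 for Col5a3, and 20 of the 25 were lower (50.1%) and 5 higher (49.7%). At 24 h 6 of the 8 were higher with T3, up to 0.91 for Col5a1, while Col11a1 (-0.50) and Col27a1 (-0.53) were lower, and 17 of the 25 collagens were higher (54.3%) and 8 lower (45.7%). At 48 h 3 of 8 fibrillar and 13 of all 25 collagens were higher with T3 (49.4%), and 12 of the 25 lower (50.4%).

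The median log2 difference of the fibrillar class was -0.45, -0.40, 0.43 and -0.03 at 6, 16, 24 and 48 h, against 0.01, less than 0.01 in size, 0.05 and less than 0.01 in size for all kept probe-sets. The counts at 6, 16 and 24 h were the same for the fibrillar genes after quantile normalization, median centring or adding 32 to every signal. At 48 h they were not, with 0 of 8 higher after median centring, which moves the median log2 signal of all kept probe-sets by up to 0.19, and 4 of 8 after quantile normalization. Between 16 and 24 h both treatments moved. With T3, 7 of the 8 fibrillar genes, all but Col27a1, were above their 16 h signal at 24 h, and without T3 7 of the 8, all but Col11a1, were below it. Further kept probe-sets of Col1a2, Col3a1 and Col5a1 had the directions of the brightest at 24 h, but 2 others did not. That of Col5a2 rose from 263.5 to 296.5 without T3 and was lower with T3 at 24 h (-0.11). That of Col11a1 was higher with T3 at 24 h (0.12). Glial genes were high on the untreated 24 h array. The granule neuron markers were high there as well, with a summed signal of 13258 against 8162 with T3. The part of either set in the difference was not tested.

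**Figure D3:**
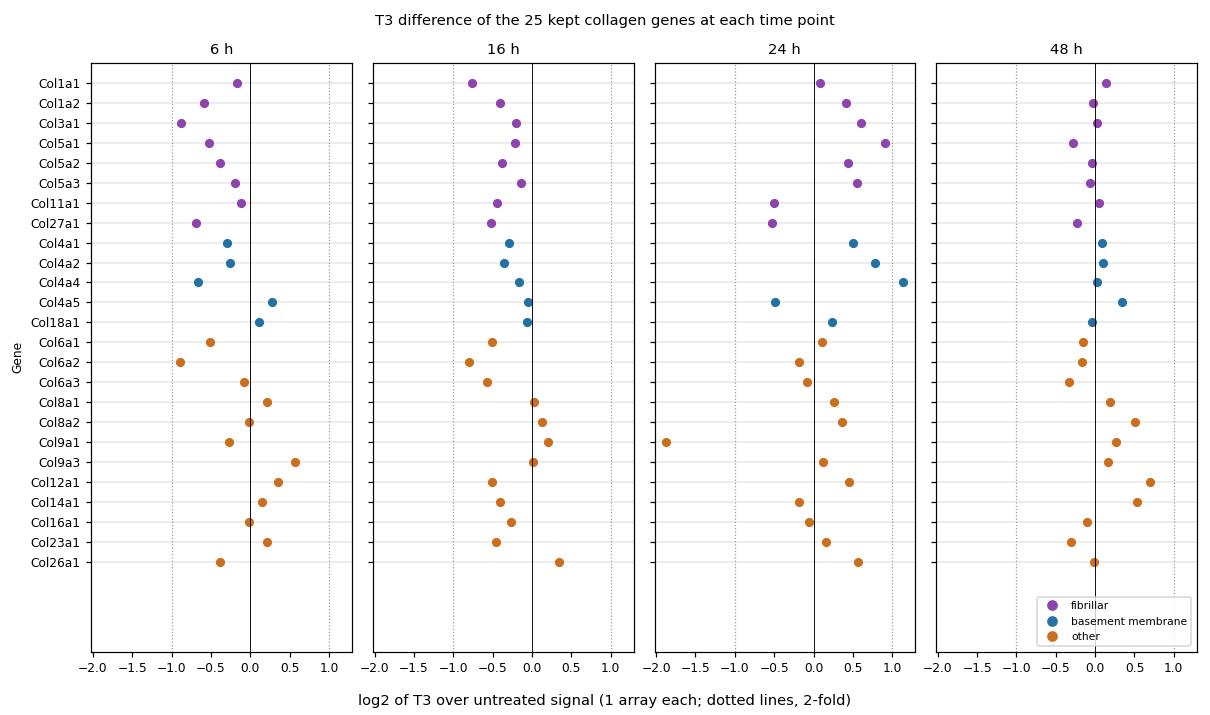
log2 of T3 over untreated signal (x axis, 1 array each, dotted lines at 2-fold) for the 25 kept collagen genes (y axis, coloured by class) at 6, 16, 24 and 48 h. All 8 fibrillar genes lie left of 0 at 6 and 16 h and 6 of them right of 0 at 24 h.

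Past 2-fold there were few differences. At the brightest probe-set, none of the 25 kept collagens was over 2-fold higher or lower with T3 at 6 h (0.527% and 0.328% of all kept probe-sets), at 16 h (0.433% and 0.305%) or at 48 h (0.833% and 0.344%). At 24 h Col4a4 was over 2-fold higher with T3 (3.67% of all kept probe-sets) and Col9a1 over 2-fold lower (5.16%). Col4a4 had 88.7 with T3 against 40.2 without at 24 h (log2 difference 1.14), and 0.74 with 32 added to every signal. A further kept probe-set of Col4a4 did not pass 2-fold at 24 h (107 with T3 against 66.5 without, 0.69). At 6 h that probe-set had 4.3 with T3 against 0.6 without, near the floor. Col9a1 had 32.1 with T3 against 117 without (-1.87, and -1.22 with 32 added), and at 6, 16 and 48 h its T3 signal lay within 2-fold of the untreated one. Below the filter, Col15a1 had 67.8 with T3 against 23 without at 48 h.

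Genes that work with collagens, and the cell type markers further on, were read in the same fits, in which 1.75% of all kept probe-sets rose and 0.422% fell, and in which no probe-set passed once either the 6 h or the 48 h arrays were left out. Of 21 kept genes of collagen synthesis and processing 2 rose, Lox, the oxidase that cross-links fibres (slope 1.34, SE 0.19, limma adjusted p = 0.0391), and Pcolce, which speeds the removal of the C-terminal propeptide (slope 1.32, SE 0.24, limma adjusted p = 0.0456), and 0 fell. Lox had 118, 580.3, 1704.5 and 1713 with T3 and 104, 594, 738 and 1570.4 without. The lowest slope of the list was -0.07. The median slope of the list was 0.54. Of 9 kept collagen-binding matrix proteins 6 rose and 0 fell (median slope 0.89), among them the proteoglycans Bgn (1.05), Lum (1.46) and Epyc (1.70), the counter-adhesive protein Sparc (0.57) and fibronectin, Fn1 (0.89).

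Among 11 kept partners in the basement membrane 1 rose, the laminin chain Lama2 (slope 0.96, SE 0.19, limma adjusted p = 0.0474), and 0 fell (median slope 0.62). Of 5 kept collagen receptors 1 rose, the endocytic receptor Mrc2 (slope 1.45, SE 0.22, limma adjusted p = 0.0428) and 0 fell. Of 9 kept genes of collagen degradation 3 rose and 0 fell, the protease Ctsk (slope 1.21, SE 0.14, limma adjusted p = 0.0364), the gelatinase Mmp2 (1.09) and the inhibitor Timp3 (0.68). With T3 as the comparison none of these 5 lists had a gene that passed (smallest limma adjusted p = 0.815).

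Markers of meningeal fibroblasts rose along with most collagens, and other marker lists shared parts of that course. Of 13 meningeal fibroblast markers 12 were kept, 7 of these rose and 0 fell (median slope 1.22), with Foxd1 (1.29), Tbx18 (1.04), Twist1 (1.26), Lum (1.46) and Igf2 (0.74) at the smallest p. Their summed signal was 3189.7 to 12849 with T3 and 3142 to 14529 without, each lowest at 6 h and highest at 48 h. Lum, Ogn and Dcn stand on this list and on that of collagen-binding proteins. The mean centred log2 signal of the 12 markers was -2.25, 0.56, 0.46 and 1.25 with T3 and -2.03, 0.76, -0.15 and 1.39 without at 6, 16, 24 and 48 h. The same mean for the 8 fibrillar collagens was -1.75, 0.11, 0.42 and 0.91 with T3 and -1.31, 0.50, 0.17 and 0.96 without. Both sets were lowest at 6 h, and both were lower without T3 than with it at 24 h. The means of the kept mural cell and choroid plexus markers shared both traits. Those of the mural cell markers were -1.05, -0.21, 0.46 and 1.05 with T3 and -0.92, -0.17, -0.08 and 0.93 without. From 16 to 24 h with T3 the fibrillar and mural means rose, whereas the meningeal mean fell.

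Of 10 mural cell markers 6 were kept and 1, the smooth muscle protein Tagln, rose (slope 1.26, SE 0.22, limma adjusted p = 0.0440), with summed signals of 593 to 2935 with T3 and 640.2 to 2684 without. Anpep and the smooth muscle myosin Myh11 were below the filter level on every array. Of 10 endothelial markers 7 were kept and 0 passed in either direction (median slope 0.14, summed signals of 844 to 1768 with T3 and 625 to 1899 without). Pecam1, Tie1 and Flt1 were below the filter level throughout. Of 7 choroid plexus markers with a probe-set 6 were kept and 0 passed (summed signals of 4896.5 to 7923 with T3 and 4582 to 7422.5 without). Their slopes were positive for 5 of the 6, with a median of 0.65. The summed endothelial and choroid plexus signals were below their 16 h value at 24 h under both treatments, as were the mean centred signals of the basement membrane collagens, -1.39, 0.45, 0.19 and 0.85 with T3 and -1.23, 0.64, -0.25 and 0.74 without. The meningeal sum was lower at 24 h as well (9706 to 8561 with T3, 10457 to 6359 without). So were the sums of the basement membrane partners and the collagen degradation genes, whereas the mural cell sum was higher under both treatments. Of 8 astrocyte and Bergmann glia markers 7 were kept and 0 passed (median slope 0.12, summed signals of 747 to 1240.4 with T3 and 654 to 3129 without). Of 10 granule neuron markers 9 were kept, all with negative slopes (median -0.88) and none passing (the mature marker Gabra6 was below the filter level on every array). Their summed signals were 3298 to 12196 with T3 and 2399.7 to 13258 without, highest with T3 at 6 h and without T3 at 24 h. The part of any of these cell types in the collagen signals was not tested.

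**Figure D4:**
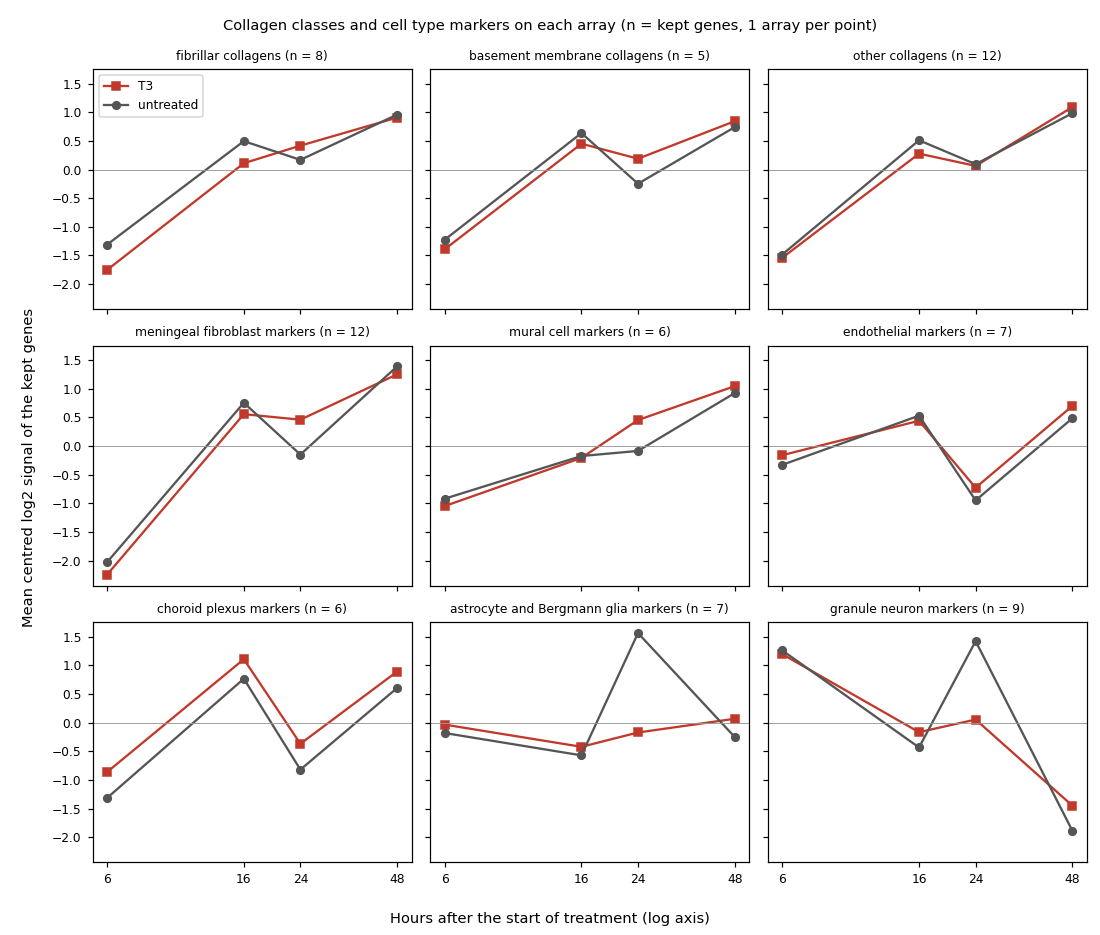
Mean centred log2 signal (y axis) of the kept genes of 3 collagen classes and 6 lists of cell type markers on each array, against hours after the start of treatment (log axis), with red squares for T3 and grey circles for untreated arrays. All 3 collagen classes and the meningeal, mural and choroid plexus markers are lowest at 6 h, and the glial mean is high on the untreated 24 h array.

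Over the 8 arrays, which share batches in pairs, the kept genes whose log2 signal correlated best with Col1a1 were Lama2, Col5a2, Col6a1, Fxyd5 and Meak7 (Pearson's r of 0.993 to 0.989), those with Col3a1 were Efemp1, Col1a2, Scara3, Anxa1 and Epyc (0.997 to 0.992), and those with Col4a1 were Col4a2, Cpt2, Mgst2, Irak1 and Ehd2 (0.993 to 0.985). These values describe 8 arrays on which the 6 h signals of many of these genes were low. A second view of the genes came from their other probe-sets. Of 42 genes 15 had a single probe-set, and 14 of the kept genes had 1 or more further probe-sets that passed the filter, 15 in all. Each of the 15 had a slope of the same sign as the brightest. For 7 of them the brightest probe-set had passed, and 4 of the 7 passed too, those of Col1a2, Col3a1, Col5a2 and Col6a2. A further probe-set of Col23a1, whose brightest had not passed, passed as well (slope 0.93, limma adjusted p = 0.0474).

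The 6 h arrays carried much of the rise. Without them no probe-set passed in limma (454 of all kept probe-sets, among them 5 collagens with positive slopes, had an unadjusted p under 0.05), and the slopes were 0.80 for Col1a1, 0.48 for Col1a2, 0.37 for Col3a1, 0.71 for Col5a1, 0.60 for Col5a2, 0.57 for Col4a5, 0.64 for Col6a1, 0.55 for Col6a2, 0.49 for Col8a2 and 1.18 for Col12a1. These 10 were all smaller than with the 6 h arrays and all positive. Among the 25 genes, 2 turned negative without these arrays, Col4a4 (-0.01) and Col9a3 (-0.09). Whether the low 6 h signals come from the hours or from the batch cannot be told apart. For 23 of the 25 genes, all but Col11a1 and Col9a1, both 16 h arrays were above both 6 h arrays (35.6% of all kept probe-sets).

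**Figure D5:**
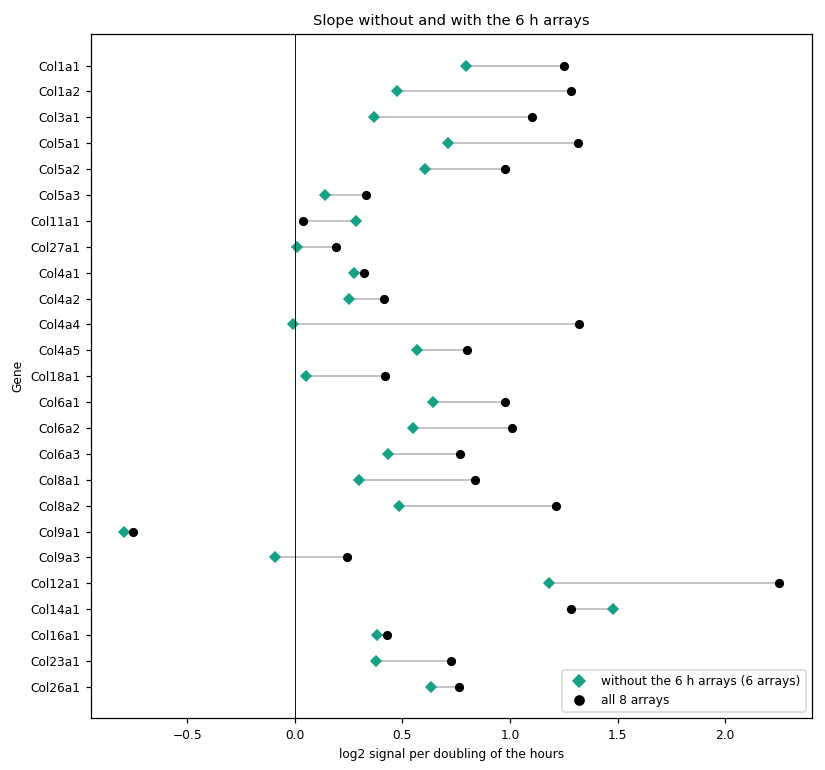
Slope of log2 signal per doubling of the hours (x axis) for the 25 kept collagen genes (y axis), without the 6 h arrays (green diamonds, 6 arrays) and with all 8 arrays (black circles), joined by a line per gene. Of the 11 genes that rose, all but Col14a1 have the diamond left of the circle.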

How the data were processed

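RNA of 8 cultures was amplified and hybridised by the authors to Affymetrix whole-genome mouse arrays. The authors' deposited values are linear signal intensity, not log, from GCOS and MAS5 per the submitters' processing notes, with each array scaled to the same trimmed mean (99.5 to 99.6 without the extreme 2% at each end). Of 45101 probe-sets 64 controls were left out. Probe-sets were named from the platform table, and all 42 collagen symbols were found by gene ID in RefSeq. Columns of values left unused: 0.

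A floor of 1 was applied before log2, and probe-sets at or above the 60th percentile of mean log2 signal (4.95, a signal of 31) were kept. The tests used limma 3.58.1 in R 4.3.3 (variance trend, moderated SE, Benjamini-Hochberg over all 18015 kept probe-sets, threshold 0.05) and the figures and promoters Python 3.11.15, pandas 2.3.3 and matplotlib 3.10.9. The correlation within a time point was 0.57. Since no condition had a replicate, p values of the T3 fits measure the spread over the 4 pairs. Those of the slope come from all 8 arrays with that 1 correlation for every probe-set. They therefore mix the spread over time points with that between the arrays of a time point. On 1 averaged value per time point no probe-set passed (smallest limma adjusted p = 0.208). The precision is limited by 8 arrays.

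The collagen genes and the 11 other lists were chosen with earlier results of these data known. Every collagen gene is accounted for, and of the other lists the genes that passed are named, at most 5 per list by smallest p, beside a few chosen after their values were seen (Aqp4, Xist and markers below the filter). For Col1a1, Col3a1 and Col4a1 the 5 kept genes with the highest Pearson's r were named. The fits were tested on simulated data. Alternatives are given in the closing section.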

Additional observations from a re-analysis of the deposited data

How the results depend on the processing

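The collagen counts of the T3 fit (0 higher, 0 lower) and of T3 effects that change with the hours (0) were the same in every alternative run. The count of 11 rising collagens was not stable. It was 5 with quantile normalization, and 0 in 6 others, here with the smallest limma adjusted p of a collagen and the count of collagens with positive slopes at an unadjusted p under 0.05: 0 without the filter (0.0561, 20), 0 without a variance trend (0.0597, 19), 0 on 1 averaged value per time point (0.208, 17), 0 with hours in place of their log2 (0.165, 16), 0 on the untreated arrays alone (0.428, 15) and 0 on the T3 arrays alone (0.0919, 21). An unadjusted p under 0.05, with either sign of slope, was found for 7633 of all 45037 probe-sets without the filter. Among all 18015 kept probe-sets it was found for 4282 without a variance trend, 3409 on averaged values and 3585 with hours. On the untreated and the T3 arrays alone it was found for 2091 and 3904. Leaving out each time point in turn gave 0 to 20 rising collagens, 0 without the 6 or the 48 h arrays, 17 without the 16 h and 20 without the 24 h arrays, and 0 to 1 falling. Col9a1 fell (count of 1) without the 24 h arrays, without the untreated 24 h array (an alternative chosen after seeing the data) and with all 8 arrays taken as independent, where 16 rose, against 10.6% of all kept probe-sets. Other alternatives gave 8 (32 added, 0.716% of all kept probe-sets rising), 12 (median centring, 2.25%) and 15 (without the untreated 24 h array, 5.72%). On other sets of features there were 9 (filter at the 75th percentile, 2.77% of 11260 probe-sets rising) and 11 (mean of a gene's probe-sets, 3.4% of 8055 genes). Over all kept probe-sets 316 rose and 76 fell, but 41 rose and 14 fell with quantile normalization, 129 and 33 with 32 added, 6 and 2 without the filter, 959 and 150 without the 16 h arrays, 2415 and 2566 without the 24 h arrays, 1031 and 582 without the untreated 24 h array, 1916 and 1542 with independent arrays, and 0 in the alternatives that gave 0 collagens, the unfiltered fit aside. For T3, 2 were higher without the 24 h arrays, and without the 48 h arrays 1 T3 effect rose and 1 fell with the hours, none of them a collagen. The cause was not tested.

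Past 2-fold, the 24 h count of 1 higher with T3 was 0 with 32 added, at 3-fold, with the filter at the 75th percentile or with the mean of probe-sets, and the 1 lower was 0 with that filter. Without a filter, of 42 genes 4 were higher and 1 lower at 6 h (9.88% and 6.46% of all 45037 probe-sets), 3 higher at 16 h (8.18%), 6 higher and 3 lower at 24 h (11.3% and 10.7%), and 1 higher and 1 lower at 48 h (9.76% and 6.97%). At 1.6-fold, of 25 genes 3 were lower at 6 h (1.29% of all kept probe-sets), 2 lower at 16 h (1.49%), 3 higher at 24 h (10.5%) and 1 higher at 48 h (2.95%). No paired analysis by replicate number was possible because the labels give no replicate numbers. The time point was the block of the T3 fit, and without that replicate block no collagen passed (count of 0). Low signals, near the floor at 6 h for Col12a1 and Col4a4, limit the size of their folds.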
